A study of Mus musculus with 6 samples.

Results

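Hepatocytes receive hormones and extracellular nucleotides through receptors that couple to heterotrimeric G proteins. The 9 genes described here are 6 such receptors and 3 alpha subunits of G proteins, and they were taken by name from the 25184 genes of the deposited count table. The receptors are Gcgr (glucagon), Adora2b (adenosine), Adra1b (noradrenaline and adrenaline), Avpr1a (vasopressin), P2ry1 (ADP) and P2ry2 (ATP and UTP). The alpha subunits are encoded by Gnas (Gs alpha), Gnai2 (a Gi alpha) and Gnaq (Gq alpha). All 9 had counts in every library and all 9 passed the filter on low counts, so each could be compared between the genotypes.

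The libraries came from primary hepatocytes of chow-fed mice, cultured overnight on collagen after enzymatic digestion of the liver and a density gradient. The 3 Sucnr1 fl/fl libraries (replicates 1, 2 and 3) were from mice that carry loxP sites in both alleles of Sucnr1 (it encodes the succinate receptor) and no Cre. The 3 Hep-Sucnr1 KO libraries (replicates 3, 4 and 5) were from mice with the same floxed alleles and Cre recombinase under the albumin promoter. The Cre removes the stretch between the loxP sites in hepatocytes and leaves other liver cells floxed. RNA of Sucnr1 fl/fl replicate 1 and Hep-Sucnr1 KO replicate 3 was extracted on day 1 and RNA of the other 4 libraries on day 2. The age and sex of these mice were not given in the sources used here. What the replicate numbers stand for was not stated either, and no pairing of animals across genotypes was assumed.

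In the liver, glucagon acts through its receptor and Gs alpha on adenylyl cyclase. The cyclic AMP that is made activates protein kinase A, and with it glycogen breakdown and the transcription of gluconeogenic genes. Vasopressin, adrenaline through alpha1-adrenergic receptors, and ATP act through Gq and related subunits on phospholipase C, which leads to calcium release from the endoplasmic reticulum and to activation of phosphorylase kinase. Gi alpha subunits restrain adenylyl cyclase. SUCNR1 is itself a G protein-coupled receptor, for which coupling to Gi and to Gq is known. The comparison sets the transcripts of other receptors of this kind, and of the subunits that they share, side by side in hepatocytes with and without Sucnr1.

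The end of a G alpha protein is the part that inserts into an activated receptor, and it helps to set which receptors a subunit serves. The last 30 coding bases before the stop codon are shown for the 3 subunits and for Gna11, the close relative of Gnaq, because they are where the Gs, Gi and Gq classes are told apart. They were read from GRCm38 with the GENCODE M21 annotation, 5′ to 3′ on the coding strand, with the last 15 bases in capitals.
Gnas, chr2:174346356-174346385, plus strand: cgcatgcatctccgcCAATACGAGCTGCTC
Gnai2, chr9:107615638-107615667, minus strand: aagaacaacctgaagGACTGTGGCCTCTTC
Gnaq, chr19:16383362-16383391, plus strand: cagctgaacctgaagGAGTACAATCTGGTC
Gna11, chr10:81530798-81530827, minus strand: cagctgaacctgaagGAGTACAACCTGGTG
Gnaq and Gna11 differed at 2 of the 30 bases. Gnas differed from Gnai2 at 19 and from Gnaq at 14, and Gnai2 differed from Gnaq at 12. The end shown for Gnas is shared by 7 of its 16 coding transcripts with a stop codon, that of Gnai2 by 2 of 3, and Gnaq and Gna11 have 1 such transcript each. Over their whole length the members' transcripts are nearly unique. Of the windows of 50 bases in annotated transcripts, 1.841% of those of Gnai2 (72 of 3910), 0.163% of those of Gnaq and 0.03% of those of Adra1b also occurred in another gene, and 0 of those of the other 6 members.

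Library totals lay between 30504248 and 38770694 counts. Levels are given in CPM, counts scaled to the library total and adjusted with edgeR's TMM factors (0.9536 to 1.0903). Sucnr1 itself was at 6.71, 3.55 and 3.39 CPM in the Sucnr1 fl/fl libraries and at 2.66, 0.83 and 0.15 CPM in the Hep-Sucnr1 KO libraries. Every Hep-Sucnr1 KO library lay below every Sucnr1 fl/fl library, and Hep-Sucnr1 KO replicate 3 kept the most Sucnr1 transcript of the 3. The log2 fold change of Sucnr1 was −2.23, with a standard error of 0.54. In edgeR's quasi-likelihood test its unadjusted p was 0.00444 and its FDR 0.998, so even the targeted gene did not pass an FDR of 0.05. The summed level of 8 hepatocyte markers was 61212 to 94945 CPM, against 5.92 to 104 CPM for 8 Kupffer cell markers, 33.2 to 91.2 CPM for 8 sinusoidal endothelial markers, 1.71 to 10.97 CPM for 8 stellate cell markers and 1.87 to 12.6 CPM for 7 lymphocyte and neutrophil markers. Summed cholangiocyte markers reached 350 to 650 CPM, nearly all of it Spp1 and Sox9, while Krt19 and Krt7 were under 1 CPM in every library. In RNA of whole cultures, fewer cells of a type and less RNA per cell cannot be told apart.

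Gcgr was the most abundant receptor of the 6 and the steadiest member of all 9 (ENSMUSG00000025127, chr11:120530699-120538986, plus strand). It encodes the glucagon receptor, which couples to Gs. In the order of the replicate numbers, its level was 105, 99.9 and 101 CPM in Sucnr1 fl/fl and 113, 113 and 106 CPM in Hep-Sucnr1 KO. The 3 Hep-Sucnr1 KO libraries lay just above the 3 Sucnr1 fl/fl libraries, with a gap from 105 to 106 CPM, and with library size alone as the scaling the groups overlapped. The means were 102.03 ± 2.73 and 111 ± 4.11 CPM (SD, n = 3 each), a log2 fold change of 0.12 with a standard error (SE) of 0.10 and a 95% interval of −0.12 to 0.36. In edgeR's quasi-likelihood test the unadjusted p of Gcgr was 0.272 and its FDR 0.998, so that test did not separate the genotypes. A gene on the opposite strand, Gm11789, overlaps Gcgr and had 6.007% as many counts, and the authors' counting used strand.

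Adora2b, the other receptor that couples to Gs, had no stable level within either genotype (ENSMUSG00000018500, chr11:62248984-62266453, plus strand). It encodes the low-affinity adenosine A2B receptor. The libraries held 9.13, 15.9 and 18.5 CPM in Sucnr1 fl/fl and 17.4, 7.47 and 17.7 CPM in Hep-Sucnr1 KO. Low values occurred once in each genotype, in Sucnr1 fl/fl replicate 1 and Hep-Sucnr1 KO replicate 4, and the other 4 libraries lay between 15.9 and 18.5 CPM. The means of 14.5 ± 4.83 and 14.2 ± 5.82 CPM (SD, n = 3 each) gave a log2 fold change of 0.00 (SE 0.39), with a 95% interval of −0.92 to 0.93. That interval is wide, so a sizeable change in either direction would not have been detected. Within day 1 the log2 ratio of the single libraries was 0.93 and within day 2 the log2 ratio of the means was −0.58, and the interaction of genotype and day had an unadjusted p of 0.0869 in edgeR. Leaving out Hep-Sucnr1 KO replicate 4, the low library of its genotype, gave a log2 fold change of 0.43. Leaving out Hep-Sucnr1 KO replicate 3 gave −0.46, the lowest of the 6 values. It was −0.45 without Sucnr1 fl/fl replicate 1 and −0.23 when Hep-Sucnr1 KO replicate 5 was dropped. Without either day 1 library the fit compares the genotypes on day 2, where the value was also −0.46.

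Adra1b encodes the alpha1B-adrenergic receptor, through which adrenaline raises calcium in rodent hepatocytes (ENSMUSG00000050541, chr11:43774606-43901210, minus strand). It measured 21.1, 16.1 and 17.7 CPM in the Sucnr1 fl/fl libraries and 19.3, 23.8 and 17.1 CPM in the Hep-Sucnr1 KO libraries. The groups overlapped, with the highest value in Hep-Sucnr1 KO replicate 4 and the lowest in Sucnr1 fl/fl replicate 2. Means of 18.3 ± 2.56 and 20.1 ± 3.45 CPM (SD, n = 3 each) corresponded to a log2 fold change of 0.14 (SE 0.17), with a 95% interval of −0.26 to 0.54. The sign was not the same on the 2 days, at −0.13 on day 1 and 0.26 on day 2. Without Hep-Sucnr1 KO replicate 4 the log2 fold change was −0.05.

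Avpr1a, the V1a vasopressin receptor, couples to Gq and was the member with the widest spread between mice (ENSMUSG00000020123, chr10:122448499-122453452, plus strand). Its levels were 11.6, 11.5 and 5.80 CPM in Sucnr1 fl/fl and 12.9, 14.6 and 6.01 CPM in Hep-Sucnr1 KO hepatocytes. As with Adora2b, a low library stood in each genotype, but here it was Sucnr1 fl/fl replicate 3 and Hep-Sucnr1 KO replicate 5. These 2 libraries also had the highest summed hepatocyte markers, 93174 and 94945 CPM against 61212 to 85882 CPM in the other 4, and the part of this in the Avpr1a level was not tested. Most of that sum was Alb, and without it the 7 remaining markers summed to 26481 and 26045 CPM, against 22708 to 26137 CPM, so that the 2 libraries no longer stood apart. The log2 fold change was 0.22 (SE 0.37), from means of 9.62 ± 3.31 and 11.2 ± 4.56 CPM (SD, n = 3 each), and its 95% interval ran from −0.66 to 1.10. Left-out libraries moved the value between −0.22 (without Hep-Sucnr1 KO replicate 4) and 0.52, and it was also below 0, at −0.02, without Sucnr1 fl/fl replicate 3.

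The 2 nucleotide receptors both couple to Gq and P2ry2 was far more abundant than P2ry1. P2ry2 responds to ATP and UTP (ENSMUSG00000032860, chr7:100996568-101012866, minus strand). It stood at 35.9, 22.9 and 24.7 CPM in Sucnr1 fl/fl and at 22.1, 22.9 and 26.8 CPM in Hep-Sucnr1 KO. Apart from Sucnr1 fl/fl replicate 1, the libraries of the 2 genotypes filled the same range. Means were 27.8 ± 7.01 and 23.9 ± 2.51 CPM (SD, n = 3 each), with a log2 fold change of −0.19 (SE 0.18) and a 95% interval of −0.61 to 0.23, and the value was 0.06 without Sucnr1 fl/fl replicate 1 and 0.05 without Hep-Sucnr1 KO replicate 3, the 2 libraries of day 1. On day 1 the log2 ratio was −0.70 and on day 2 it was 0.06. P2ry2 was the 1 member of 9 whose interaction of genotype and day had an unadjusted p under 0.05 (0.0274), against 3.69% of all genes tested. Its FDR was 1.00 in edgeR, and an interaction FDR under 0.05 was reached by 0% of the genes tested.

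P2ry1, the ADP receptor, was the least abundant member, with 67 to 125 counts in a library (ENSMUSG00000027765, chr3:61002795-61008982, plus strand). Its CPM were 3.25, 2.53 and 2.21 in Sucnr1 fl/fl and 2.47, 2.36 and 2.52 in Hep-Sucnr1 KO. The Hep-Sucnr1 KO values lay inside the range of the Sucnr1 fl/fl values, where replicate 1 was again the highest. That library also had the highest sums of stellate cell markers (10.97 CPM, most of it Reln, against 1.71 to 4.42 CPM) and of sinusoidal endothelial markers (91.2 CPM, against 33.2 to 63.0 CPM), and the part of this in either P2Y transcript was not tested. The log2 fold change of P2ry1 was −0.11 (SE 0.21), with a 95% interval of −0.61 to 0.40, from means of 2.66 ± 0.534 and 2.45 ± 0.080 CPM (SD, n = 3 each). It was 0.04 without Sucnr1 fl/fl replicate 1 and 0.03 without Hep-Sucnr1 KO replicate 3. P2ry1 lies on the chromosome of Sucnr1, 915 kb beyond its end, with 1 protein-coding gene between them.

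Gnas, which encodes the Gs alpha that Gcgr and Adora2b use, had the highest CPM of the members (ENSMUSG00000027523, chr2:174284320-174346744, plus strand). It was measured at 340, 306 and 361 CPM in Sucnr1 fl/fl and at 312, 357 and 366 CPM in Hep-Sucnr1 KO. The groups overlapped, with the lowest libraries of both close together and the highest likewise. The means of 336 ± 27.5 and 345 ± 29.1 CPM (SD, n = 3 each) differed by a log2 fold change of 0.04 (SE 0.13), with a 95% interval of −0.28 to 0.35. Without Sucnr1 fl/fl replicate 2 it was −0.05.

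Gnai2 encodes a Gi alpha, which lowers cyclic AMP (ENSMUSG00000032562, chr9:107614125-107635367, minus strand). The libraries gave 55.9, 53.2 and 55.2 CPM in Sucnr1 fl/fl and 57.8, 59.8 and 63.7 CPM in Hep-Sucnr1 KO. Each Hep-Sucnr1 KO library lay above each Sucnr1 fl/fl library, with TMM factors and with library size alone. The means of 54.8 ± 1.41 and 60.4 ± 3.01 CPM (SD, n = 3 each) gave a log2 fold change of 0.14 (SE 0.10), with a 95% interval of −0.10 to 0.38. Leaving out each library moved it from 0.10 to 0.19, and it was 0.05 on day 1 and 0.19 on day 2. In a two-sided exact permutation test p was 0.1, which is the lowest value possible with 3 libraries in each group, and edgeR gave an unadjusted p of 0.200.

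Gnaq, the Gq alpha used by Adra1b, Avpr1a, P2ry1 and P2ry2, came nearest to a genotype difference (ENSMUSG00000024639, chr19:16132831-16387463, plus strand). It was at 18.28, 21.4 and 20.3 CPM in Sucnr1 fl/fl and at 15.7, 16.0 and 18.30 CPM in Hep-Sucnr1 KO. The groups touched, since Hep-Sucnr1 KO replicate 5 stood above Sucnr1 fl/fl replicate 1 in the second decimal, and with library size alone they did not overlap. The means were 20.00 ± 1.60 and 16.7 ± 1.41 CPM (SD, n = 3 each), a log2 fold change of −0.26 (SE 0.11) with a 95% interval of −0.53 to 0.01. Its unadjusted p was 0.0544 and its FDR 0.998 in edgeR, and with DESeq2's size factors in place of TMM the unadjusted p was 0.040. The value was −0.22 on day 1 and −0.28 on day 2, and lay between −0.31 and −0.20 with each library left out. The opposite-strand genes E030024N20Rik and Gm10819, which overlap Gnaq, had 6.643% and 8.004% as many counts. Gna11, which serves the same receptors and was chosen after its values were seen, had means of 31.9 ± 3.18 and 29.9 ± 2.04 CPM (SD, n = 3 each), a log2 fold change of −0.09 (SE 0.12).

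**Figure D1:**
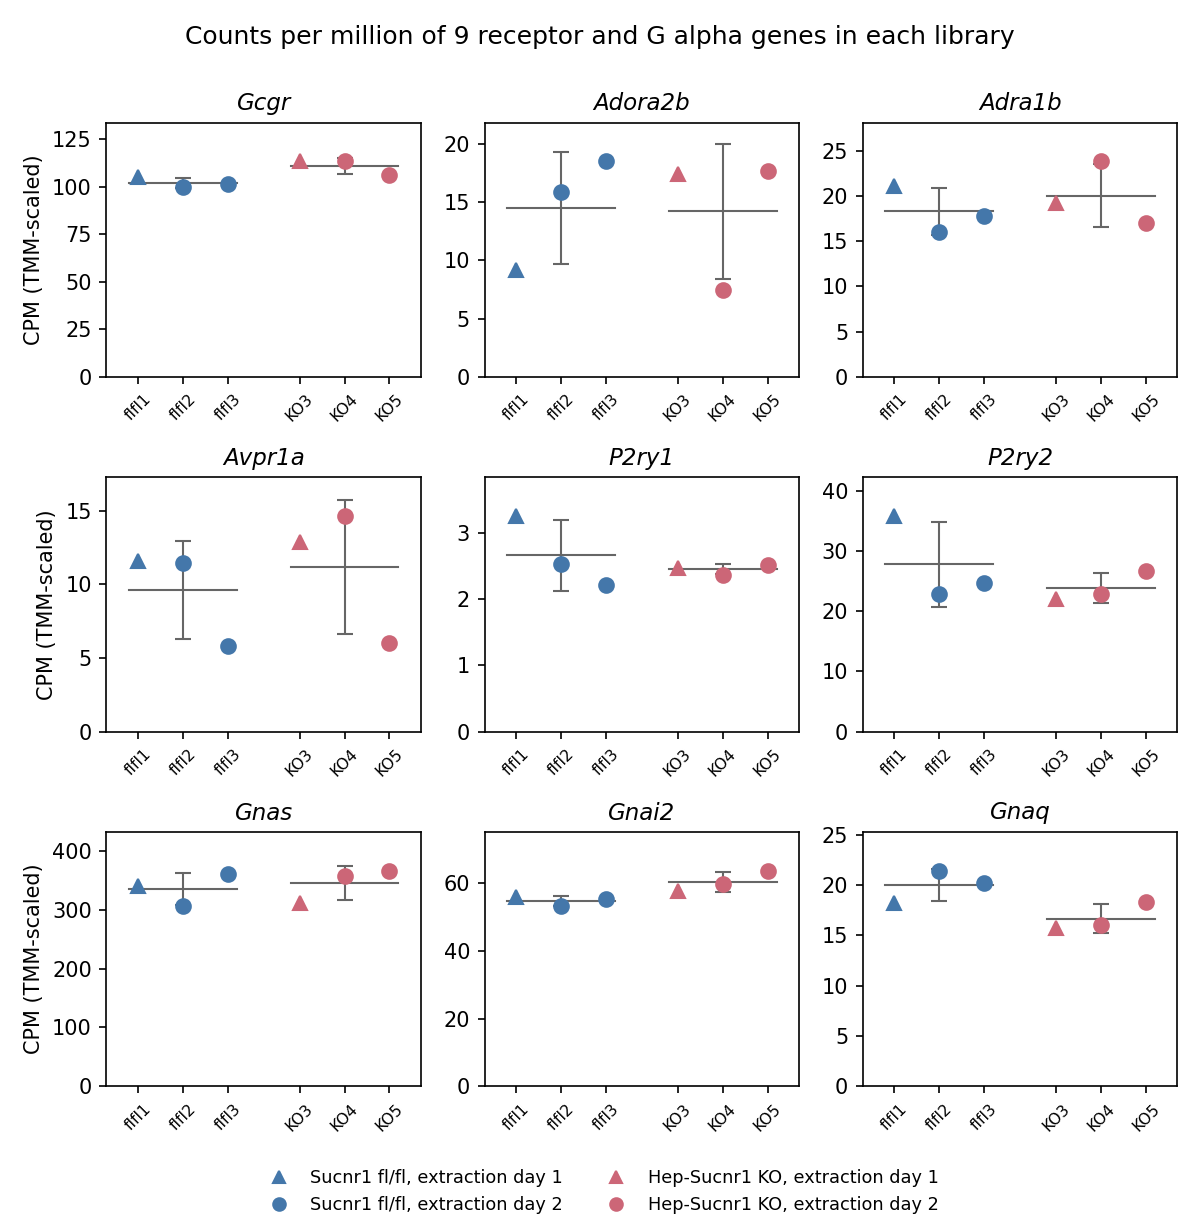
Each panel plots the CPM (TMM-scaled, axis from 0) of a gene in each of the 6 libraries, named by genotype (flfl, KO) and replicate number, with triangles for extraction day 1, circles for day 2, and the mean ± SD (n = 3) of each genotype in grey. Gcgr, Gnas and Gnai2 vary little across libraries on this axis, though for Gcgr and Gnai2 each KO library lies above each flfl library. Adora2b is low in flfl1 and KO4, and Avpr1a is low in flfl3 and KO5.

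Set per kilobase of exon (the union of the exons of a gene), the members differed widely in level. Gcgr stood at 40.6 ± 2.20 CPM per kilobase (SD, n = 6 libraries) and Gnas at 30.4 ± 2.31, followed by Gnai2 at 15.2 ± 0.991. Then came Adora2b at 7.77 ± 2.59, P2ry2 at 6.59 ± 1.32, Adra1b at 5.67 ± 0.853 and Avpr1a at 3.89 ± 1.37. Gnaq was at 2.96 ± 0.366 and P2ry1 at 0.596 ± 0.084. The ranges of the 6 libraries did not overlap between Gcgr, Gnas, Gnai2 and the genes under them. From Adora2b to Gnaq, each gene overlapped its neighbour in the order. P2ry1 lay below all the others in every library.

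This order depends on the length used for Gnas. Gnas has 24 annotated transcripts and an exon union of 11186 bases, of which its longest transcript holds 3947. Divided by the longest transcript, Gnas was at 86.2 CPM per kilobase and stood above Gcgr, at 42.5. Gnai2, with 10 transcripts, moved from 15.2 to 26.0 and P2ry2 from 6.59 to 8.59, which put P2ry2 above Adora2b. Among the Gq class alpha subunits Gna11 was higher than Gnaq per kilobase of exon, 7.54 against 2.96. Of the 4 receptors that couple to Gq, P2ry1 was far lower than the others per kilobase of exon. The library range of Adra1b overlapped those of P2ry2 and Avpr1a. P2ry2 (5.62 to 9.13) and Avpr1a (2.17 to 5.49) did not overlap.

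**Figure D2:**
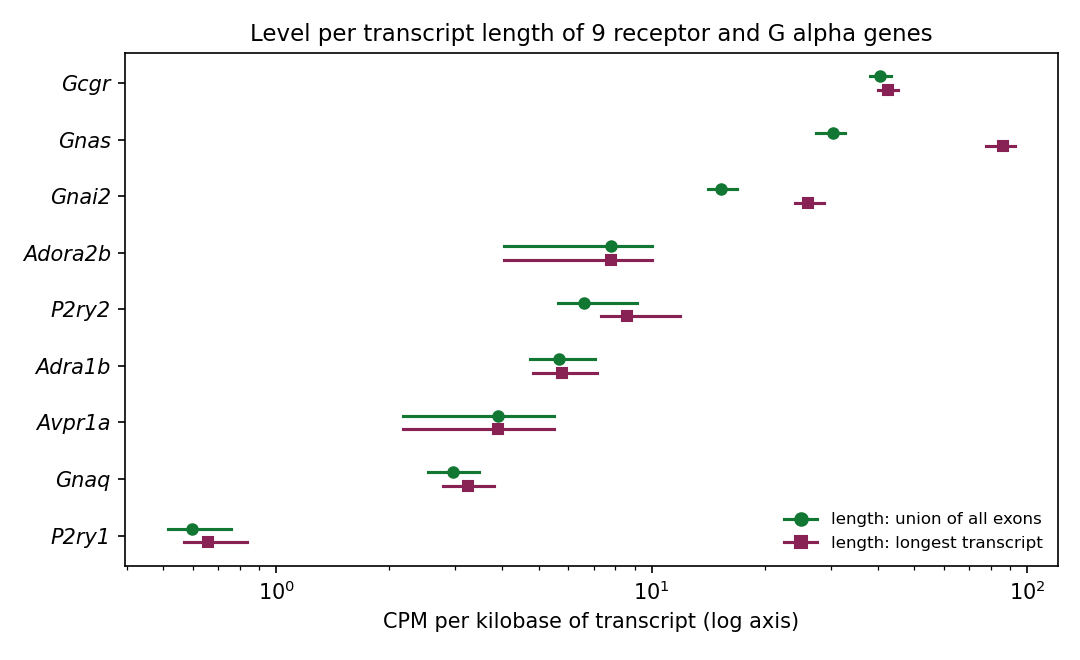
CPM per kilobase on a log axis for each gene, as the mean (marker) and the range (line) of the 6 libraries, with the union of all exons (green circles) or the longest transcript (purple squares) as the length. Gcgr leads with the exon union at 40.6 and Gnas with the longest transcript at 86.2, and P2ry1 is lowest with either.

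Across all 9 genes, 0 passed an FDR of 0.05 for genotype in edgeR, where 0% of the 15105 genes tested did. Sucnr1, the targeted gene, did not pass it either. An unadjusted p under 0.05 was also reached by 0 of 9, against 3.72% of all genes tested. DESeq2 called 0 of 9, against 0.0636% of the genes to which it gave an adjusted p, and gave 0 of 9 an unadjusted p under 0.05. The libraries of the genotypes did not overlap for 2 of 9, Gcgr and Gnai2, against 10.6% of all genes tested. With library size alone it was also 2 of 9, Gnai2 and Gnaq, against 9.02%. By sign alone 6 members had a value above 0 and 3 below 0. Their median was 0.04 on the log2 scale, where that of all genes tested was 0.003. The median size of the change, with the sign removed, was 0.140 for the members and 0.145 for all genes tested. The intervals bound what these 6 libraries could have missed: for Gcgr, Gnai2 and Gnas they exclude a log2 change beyond 0.38 in either direction, while those of Adora2b and Avpr1a reach 0.93 and 1.10.

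**Figure D3:**
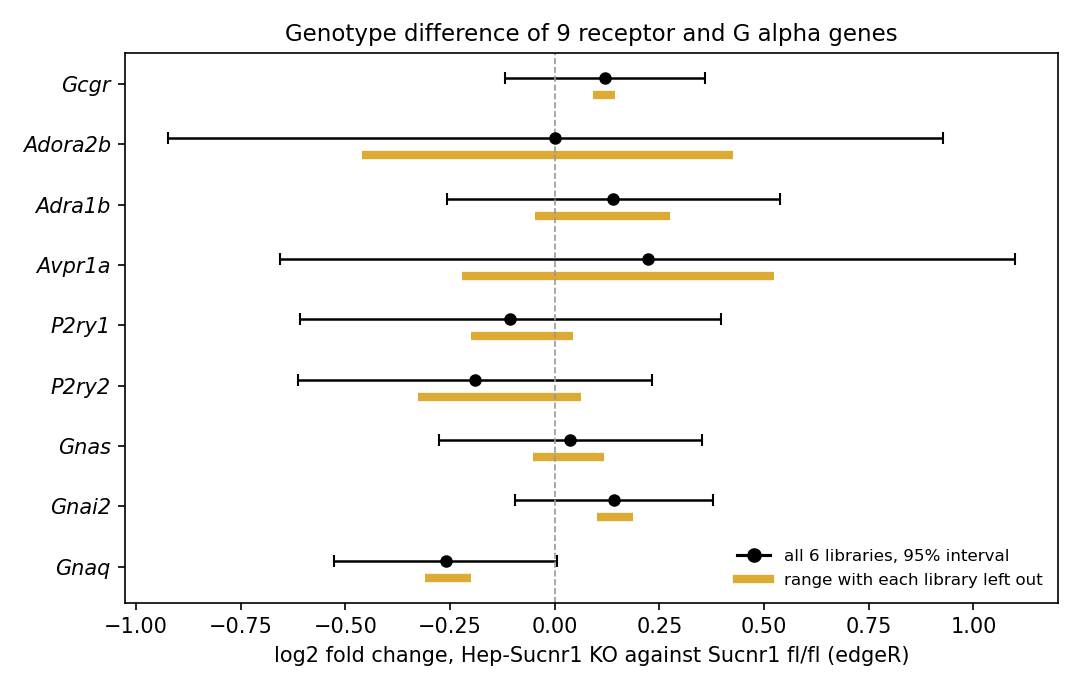
Log2 ratio of Hep-Sucnr1 KO to Sucnr1 fl/fl for each gene from edgeR's fit with extraction day, with the 95% interval (black) and the range of the values with each library left out (yellow). Every interval includes 0, that of Gnaq only just (−0.53 to 0.01), and the left-out ranges of Gcgr, Gnai2 and Gnaq stay on their side of 0.

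Extraction day was compared in the same fit. Between day 2 and day 1 the log2 fold changes of the members ran from −0.37 (SE 0.39) for Avpr1a to 0.17 (SE 0.42) for Adora2b. An FDR under 0.05 was reached by 0 of 9 in edgeR (0% of all genes tested) and an unadjusted p under 0.05 by 0 of 9 (7.49% of all genes tested). DESeq2 called 0 of 9 for the day, against 1.61% of the genes to which it gave an adjusted p. Day 1 holds 1 library of each genotype, so its values have no replicate check of their own.

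The members differed in how much they varied from mouse to mouse. The SD of log2 CPM over the 6 libraries was 0.078 for Gcgr, 0.092 for Gnai2 and 0.111 for Gnas, at percentiles 3.57, 6.74 and 11.8 of all genes tested, whose median was 0.245. For Avpr1a it was 0.574 and for Adora2b 0.562, at percentiles 84.9 and 84.3, with 2.52-fold and 2.48-fold between the highest and the lowest library. Gnaq, P2ry1, Adra1b and P2ry2 lay between, from 0.178 to 0.260. So Gcgr, Gnas and Gnai2 were among the steadier transcripts of these cultures, and Avpr1a and Adora2b among the more variable ones. The percentiles were taken over tested genes of all count levels, and the part of count depth in them was not tested. The libraries low in Avpr1a were not those low in Adora2b.

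Over the 36 pairs of members, the tightest relation was that of Gcgr and Gnaq, which ran opposite to each other (Pearson's r −0.992, Spearman's rho −0.943, n = 6 libraries, both genotypes together). Two-sided exact permutation tests gave p = 0.00417 for r and p = 0.0167 for rho, and 0.15 and 0.6 after Benjamini-Hochberg adjustment over the 36 pairs. Without the 2 libraries farthest from the median of Gcgr, r was −0.983. Gcgr spans only 1.13-fold from the lowest to the highest library, both genes share the library scaling, and each genotype and each day holds fewer than 6 libraries, so no value within them is given. The 3 genes most like Gcgr over the 6 libraries were Gm28530 (r 0.987, at a mean of 0.26 CPM), Ggt6, a gamma-glutamyltransferase family gene (r 0.984), and Xrcc6, a subunit of the Ku DNA repair complex (r 0.982). Among the 15105 genes tested, 88 besides Gcgr had r above 0.9 with it. In a search of so many genes over 6 libraries some reach a high r by chance, and whether 88 exceeds that was not tested.

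Promoter windows of RefSeq (GRCm38.p6, from 250 bases before to 50 after a start) were available for 8 of the 9 members, 13 windows in all. Their GC content ran from 42.3 to 81.7%, where the median of all 32851 windows was 52.7%. GGGCGG, the GC box, was found on either strand in 9 of the 13 windows and in 35.66% of all windows. TATAAA was found in 4, the window of Avpr1a and 3 of the 4 of Gnas, against 13.62% of all. The Gnas windows that start at bases 174327499 and 174327518 overlap, as do the windows of P2ry2, so a match can be counted in both. The most downstream Gnas window, with a GC content of 81.7%, had no TATAAA. The Gnas windows belong to different starts, and which of them serves the transcripts of Gs alpha was not examined. The full cyclic AMP response element TGACGTCA was found in 0 of 13 and in 1.79% of all windows.

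Around the members, 8 lists of pathway genes were followed, with 157 genes counted once. Of these, 147 had counts and 111 were tested, the 3 alpha subunits included. An FDR under 0.05 for genotype was reached by 0 of 111, and by 0 for the extraction day. An unadjusted p under 0.05 was reached by 7 (6.31%, against 3.72% of all genes tested), and the groups did not overlap for 12 (10.8%, against 10.6%). The median log2 fold change over the 111 was −0.08. Named here are 6 of the 7, Sucnr1, Per1 and Prkca, which the rule for named genes selects, and Adora1, Ppargc1a and Grk6, which were chosen after their values were seen.

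Among the other receptors, 34 of 42 had counts and 19 were tested, of which 4 were higher and 15 lower by sign, and the median was −0.16 on the log2 scale. The most abundant was S1pr1, a sphingosine 1-phosphate receptor, at 23.0 ± 7.65 and 20.8 ± 4.27 CPM (SD, n = 3 each). Adora1, the adenosine receptor that couples to Gi and so opposes Adora2b at adenylyl cyclase, was at 10.95, 9.71 and 9.85 CPM in Sucnr1 fl/fl and at 6.61, 6.76 and 7.04 CPM in Hep-Sucnr1 KO. The 2 ranges were well apart and narrow. The log2 fold change was −0.58 (SE 0.13). In edgeR its unadjusted p was 0.00352 and its FDR 0.998, and it lay between −0.62 and −0.50 with each library left out. DESeq2 gave −0.60 (SE 0.18) with an adjusted p of 0.290.

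Of the 13 G alpha genes all had counts and 11 were tested, 7 higher and 4 lower by sign, and their median was 0.03 on the log2 scale. The largest rise by value was that of Gna14, a Gq class subunit, from 1.59 ± 0.640 to 2.91 ± 2.19 CPM (SD, n = 3 each), where Hep-Sucnr1 KO replicate 4 alone reached 5.20 CPM and replicate 5 stood at 0.82 CPM. The largest fall by value was that of Gna12, at 32.6 ± 7.16 and 27.1 ± 3.16 CPM. Neither exceeded the spread, with unadjusted p of 0.196 and 0.192 in edgeR. Without Hep-Sucnr1 KO replicate 4 the median of the alpha subunits was −0.12. Of the 16 beta and gamma subunit genes, 14 had counts and 9 were tested, with a median of 0.10, and of −0.09 without Sucnr1 fl/fl replicate 2. Gng12 was the most abundant at 118 ± 13.3 and 115 ± 10.98 CPM. The extremes among genes of at least 1 CPM were Gng11 at 0.15 (SE 0.33) and Gnb1 at −0.11 (SE 0.13) on the log2 scale.

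The list of adenylyl cyclases, phosphodiesterases and protein kinase A subunits had 28 genes, 18 of them tested, with 6 higher and 12 lower by sign and a median log2 fold change of −0.11. Pde4b, a phosphodiesterase that degrades cyclic AMP, was the most abundant at 152 ± 42.6 and 125 ± 48.7 CPM (SD, n = 3 each). Prkaca, a catalytic subunit of protein kinase A, had the largest value upward, 0.21 (SE 0.17), and the cyclase gene Adcy6 the largest downward among genes of at least 1 CPM, −0.30 (SE 0.20). The groups did not overlap for Pde8a and Prkacb, both lower in Hep-Sucnr1 KO and both named after their values were seen. Prkacb was at 29.2 ± 0.542 and 26.1 ± 1.32 CPM. Of the 8 genes of CREB and its coactivators 2 were higher and 6 lower by sign, with a median of −0.18, from Crtc2 at 0.06 (SE 0.14) to Crtc3 at −0.30 (SE 0.18). Crtc2, the coactivator that glucagon signalling brings to the nucleus, was the most abundant of them.

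Genes that respond to cyclic AMP gave a median log2 fold change of −0.16, with 3 higher and 11 lower by sign of 14 tested. Pck1, the gluconeogenic phosphoenolpyruvate carboxykinase, was the most abundant and close to equal in the genotypes, at 747 ± 120 and 736 ± 126 CPM (SD, n = 3 each). Among genes of at least 1 CPM, the highest value upward was that of Tat, tyrosine aminotransferase, 0.07 (SE 0.23). Per1, a clock gene that cyclic AMP induces, was at 109.9, 65.1 and 59.9 CPM in Sucnr1 fl/fl and at 36.6, 31.2 and 56.9 CPM in Hep-Sucnr1 KO. Its log2 fold change was −0.86 (SE 0.29), with an FDR of 0.998 and an unadjusted p of 0.0228 in edgeR, and Sucnr1 fl/fl replicate 1 stood far above the rest. Without that library it was −0.50 and without Hep-Sucnr1 KO replicate 3 −0.52, while leaving out Hep-Sucnr1 KO replicate 5 gave −1.25, with an FDR of 0.448 in edgeR. Ppargc1a, the coactivator of gluconeogenic genes, was at 4.08, 2.74 and 2.90 CPM in Sucnr1 fl/fl and at 2.09, 1.56 and 2.52 CPM in Hep-Sucnr1 KO, a log2 fold change of −0.63 (SE 0.26) with an FDR of 0.998, which ran from −0.90 to −0.46 with each library left out. With Sucnr1 fl/fl replicate 1 left out, the median of this list was 0.02 and that of the other receptors 0.12. Without Hep-Sucnr1 KO replicate 3, the other day 1 library, they were 0.01 and 0.11. Either fit leaves 1 library on day 1 and so compares the genotypes on day 2, where the medians were also 0.01 and 0.11. The negative sign of both medians thus rests on the day 1 pair and cannot be assigned to either of its libraries.

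On the arm from phospholipase C to calcium, all 18 genes were tested, 9 higher and 9 lower by sign, with a median log2 fold change of 0.01. Atp2a2, the calcium pump of the endoplasmic reticulum, was the most abundant at 256 ± 37.9 and 227 ± 15.8 CPM (SD, n = 3 each). Prkca, protein kinase C alpha, was at 8.42 ± 1.85 and 5.46 ± 1.39 CPM, a log2 fold change of −0.61 (SE 0.21), with an FDR of 0.998 and an unadjusted p of 0.0246 in edgeR. Phkg2, the liver catalytic subunit of phosphorylase kinase, was at 8.61 ± 0.842 and 10.5 ± 0.745 CPM, 0.29 (SE 0.12) on the log2 scale, and its groups did not overlap. Of the 21 genes of desensitisation, 17 were tested, 8 higher and 9 lower by sign, with a median of −0.07. Rgs16, which speeds the turn-off of Gi and Gq alpha, was the most abundant at 137 ± 80.6 and 96.9 ± 11.4 CPM. The receptor kinase gene Grk5 was at 0.29 (SE 0.20) and Rgs5 at −0.52 (SE 0.38), and Grk6 at −0.30 (SE 0.12) with an FDR of 0.998 in edgeR.

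**Figure D4:**
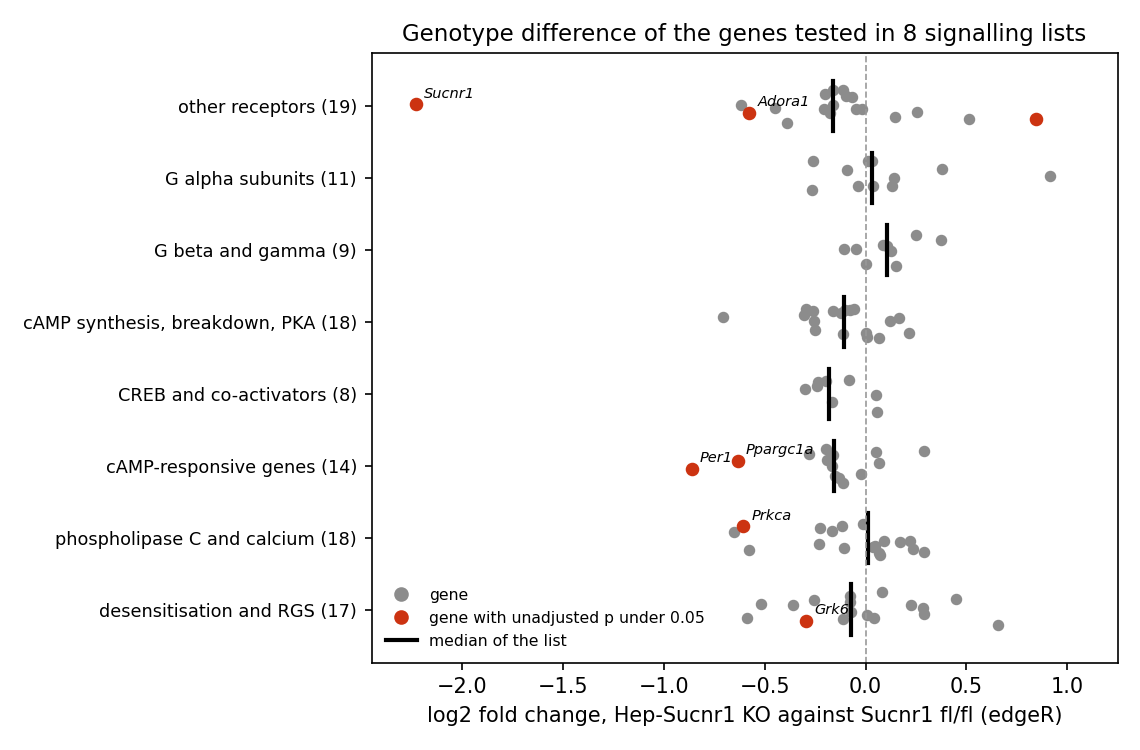
Log2 ratio of Hep-Sucnr1 KO to Sucnr1 fl/fl (edgeR) for each gene tested in the 8 lists, with the number tested in brackets, the list median as a black bar and genes with an unadjusted p under 0.05 in red, 6 of the 7 with their names. The medians lie between −0.18 and 0.10, and Sucnr1 at −2.23 stands far from every other gene.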

How the data were processed

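The deposited table holds raw counts: the authors trimmed read pairs (Trim Galore 0.6.7), aligned them to GRCm38 (STAR 2.7.10a) and counted them per gene of Ensembl 102 with featureCounts, using strand. How pairs that match several genes were counted is not given in the sources used here.

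Symbols, coordinates and exon lengths came from GENCODE M21 (same build), which matched 25096 of 25184 genes. Genes with a mean DESeq2-normalized count above 5 were tested (15105) with edgeR 4.0.16 (quasi-likelihood, TMM, extraction day and genotype, Benjamini-Hochberg over all genes tested, threshold 0.05, R 4.3.3). Log2 CPM used a prior count of 2. The common biological coefficient of variation was 0.206, and each member had at least 67 counts in every library. The test was checked on simulated data. DESeq2 1.42.0 (Wald test), other scalings and filters, no covariate, day 2 alone and each library left out were alternatives.

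The members and lists were chosen with earlier results of these data known. Named were the members, Sucnr1, in each list the most abundant gene and, among those of at least 1 CPM, the largest rise and fall, and the 3 genes most correlated with Gcgr. Any other gene is said to have been picked once its values were known. Some genes that the rule selects are not reported here.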

Additional observations from a re-analysis of the deposited data

How the results depend on the processing

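Over 126 alternative fits of the 9 members, the genotype difference passed an FDR of 0.05 in 0 (FDR 0.898 to 1.00 in edgeR and DESeq2), and an unadjusted p under 0.05 came once, for Gnaq with DESeq2's size factors. The sign was kept in 107 and turned in 19, over 6 genes. Day 2 alone and the fits without either day 1 library make nearly the same comparison, so their sign changes are not independent. For Adora2b, the log2 fold change was −0.019 with DESeq2, −0.020 with DESeq2's size factors, −0.033 with library size alone, −0.017 without a filter, −0.030 without the covariate and −0.46 on day 2 alone. Day 2 alone gave 0.033 for P2ry1 and 0.055 for P2ry2. With each library left out the ranges were −0.048 to 0.28 for Adra1b, −0.22 to 0.52 for Avpr1a, −0.46 to 0.43 for Adora2b, −0.20 to 0.043 for P2ry1, −0.33 to 0.064 for P2ry2 and −0.051 to 0.12 for Gnas. For extraction day they were −0.36 to 0.085 for Adra1b, −0.47 to 0.87 for Adora2b, −0.63 to 0.17 for P2ry2, −0.081 to 0.096 for Gnai2 and −0.065 to 0.21 for Gnas. Over all genes, the genotype calls went from 0 to 7 with DESeq2. The day calls went from 0 to 225 with DESeq2, to 122 without a filter and to between 0 and 29 with a library left out (29 without Sucnr1 fl/fl replicate 2). The cause was not tested.

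Of 112 alternative medians of the lists, 104 moved by less than the spread between libraries and 8 by more. Most of those 8 came from day 2 alone and from the fits without either day 1 library, which make nearly the same comparison. No paired analysis was possible because the genotypes share only 1 replicate number. Alternatives for Adora1, Per1, Ppargc1a, Prkca and Grk6 were chosen after seeing the data: each kept its sign, and with a library left out Prkca ran from −0.78 to −0.41 and Grk6 from −0.34 to −0.26. P2ry1, with 67 to 125 counts a library, is the member whose level depth limits most.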
